A study of Homo sapiens with 28 samples.

Results

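Transcripts of enzymes of the tricarboxylic acid (TCA) cycle were followed across short hairpin RNA (shRNA) knockdowns of RNA-processing and chromatin factors in HEK293 cells, a human embryonic kidney line. The set was chosen by name, as 9 genes: CS, IDH3A, IDH3B, IDH3G, OGDH, FH and MDH2 of the mitochondrial cycle, and the related isocitrate dehydrogenases IDH2 and IDH1. It was put together after IDH2 had been seen to be lower in DDX17 knockdown, so every value in DDX17 knockdown is given as a description, with no test. Of the 9 genes, 8 were found among the 18417 genes measured, each through 1 probeset, and FH was not analysed here.

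The cells were infected with pLKO lentiviruses that carried an shRNA under the U6 promoter, selected in puromycin at 2 µg/ml and harvested after 6 days. Every array, control arrays included, therefore comes from infected and puromycin-selected cells, and control cells expressed a hairpin whose target, the lacZ gene of bacteria, is absent from human cells. Transcripts were profiled on Human Gene ST1.0 arrays, 14 to each of 2 array series. The first of these had 3 hairpins each for CLP1, DDX5, DDX17 and HNRNPL, beside a single array for CPSF6 and a single one for lacZ, and the second series held PABPC1, PARP1, PRKDC and SUPT16H knockdowns with 3 hairpins each and 2 lacZ arrays. The 3 arrays of a knockdown carry different hairpin sequences, kept by the study for their knockdown, so the spread between them includes differences between hairpins.

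The lacZ array of the first series and lacZ replicate 2, in the second series, differed by a near-constant 0.32 log2 units (SD 0.07 over probesets), whereas each differed from lacZ replicate 3 with an SD of 0.29 and 0.28. They were treated as 1 sample, which serves each comparison within a series once. All 8 tested target genes were below lacZ in all of their own hairpin arrays. Of the HEK293 markers, NEFL lay 2.86 to 5.29 log2 units above the array median on every array, NEFM, PAX2 and LHX1 lay from -1.07 to 0.48 of it, and DBH lay below it. The 4 blood and 3 liver markers lay below the median on every array, as did 4 of the 5 fibroblast and 2 of the 3 keratinocyte markers. COL1A1, of fibroblasts, lay from -0.13 to 1.08 of it and KRT14, of keratinocytes, from -0.91 to 0.04. The summed intensity of the 5 HEK293 markers (log2) was 10.4 to 11.5 in the knockdown arrays and 11.8 in the lacZ array of the first series, and 9.51 to 10.7 against 11.5 to 11.6 in the second series. It was thus lower in every knockdown array than in the lacZ arrays of its series. Intensities were summed on the linear scale, so NEFL, by far the highest of the 5 markers, weighs most in this sum. The part of the sum in the differences from lacZ below was not tested.

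The TCA cycle oxidises acetyl groups in the mitochondrial matrix and passes the electrons to the respiratory chain. CS, citrate synthase, joins acetyl-CoA to oxaloacetate. The NAD-dependent isocitrate dehydrogenase, built from the catalytic subunit IDH3A and the regulatory subunits IDH3B and IDH3G, turns isocitrate into 2-oxoglutarate. OGDH is the first enzyme of the complex that turns 2-oxoglutarate into succinyl-CoA, and MDH2 regenerates oxaloacetate from malate. IDH2 in mitochondria and IDH1 in the cytosol and peroxisomes carry out the isocitrate reaction with NADP, the cofactor whose reduced form is used in synthesis and in defence against oxidants, and both are known for mutations in glioma and leukaemia.

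Promoter windows of RefSeq (GRCh38.p14, 250 bases before to 50 after each annotated start) were at hand for 7 of the 8 genes (all but OGDH). Of 5 motifs searched on both strands, the core recognised by ETS factors (CCGGAA, or TTCCGG read on the other strand) was found in 5 of the 7 genes, and in 17.2% of the 35116 windows of all genes. The ETS family includes GABPA, a regulator of mitochondrial genes whose own levels are given below. The stretches that hold the core are shown because more members carry it than any other motif searched. IDH2 and IDH1 had no match in these windows. Over the arrays, levels of the 5 genes with the core correlated with each other from -0.05 (IDH3A with MDH2) to 0.64 (CS with IDH3G). None of these cores overlapped a match to another motif searched. Capitals mark the motif, and each stretch is read along the strand of its gene.
IDH3A, chr15:78149163-78149192, plus strand: cggcccctcagtTTCCGGgttcgcctggcg
IDH3B, chr20:2664239-2664268, minus strand: actcagtacaggCCGGAAgtcggggtacgg
IDH3G, chrX:153794450-153794479, minus strand: gtgctctaggcgCCGGAAgggggcgtgaat
CS, chr12:56300382-56300411, minus strand: ggcgggctcgggTTCCGGccagtgggcggg
MDH2, chr7:76047981-76048010, plus strand: cctttccgactcCCGGAAgtggccgtgatc
MDH2, chr7:76048025-76048054, plus strand: aggcgagcgcgaCCGGAAgtccggtcactc
The CCAAT box (CCAAT) was found in IDH1, IDH3G and CS and in 34.6% of all windows, and the GC box (GGGCGG) in IDH1, IDH3A and CS and in 45.0%. The E-box (CACGTG), at 7.26% of all windows, and the nuclear receptor half-site (AAGGTCA), at 3.92%, were found in 0 of the 7 genes. A match is only the presence of these letters, and binding was not measured.

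Levels are log2 probeset intensities. Probesets differ in their response, so a level is compared between arrays for 1 gene and not between genes, and as the samples are bulk RNA, fewer cells with a transcript and less of it per cell cannot be told apart. Differences are in log2 units with the standard error (SE) of a linear model (limma) over all arrays, and adjusted p-values are those of limma with Benjamini-Hochberg adjustment over all 18417 genes of a comparison. A call is an adjusted p under 0.05. Every knockdown was compared with lacZ in the same series and, in a comparison that does not use lacZ, against the mean of the other 3 knockdowns of its series.

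**Figure D1:**
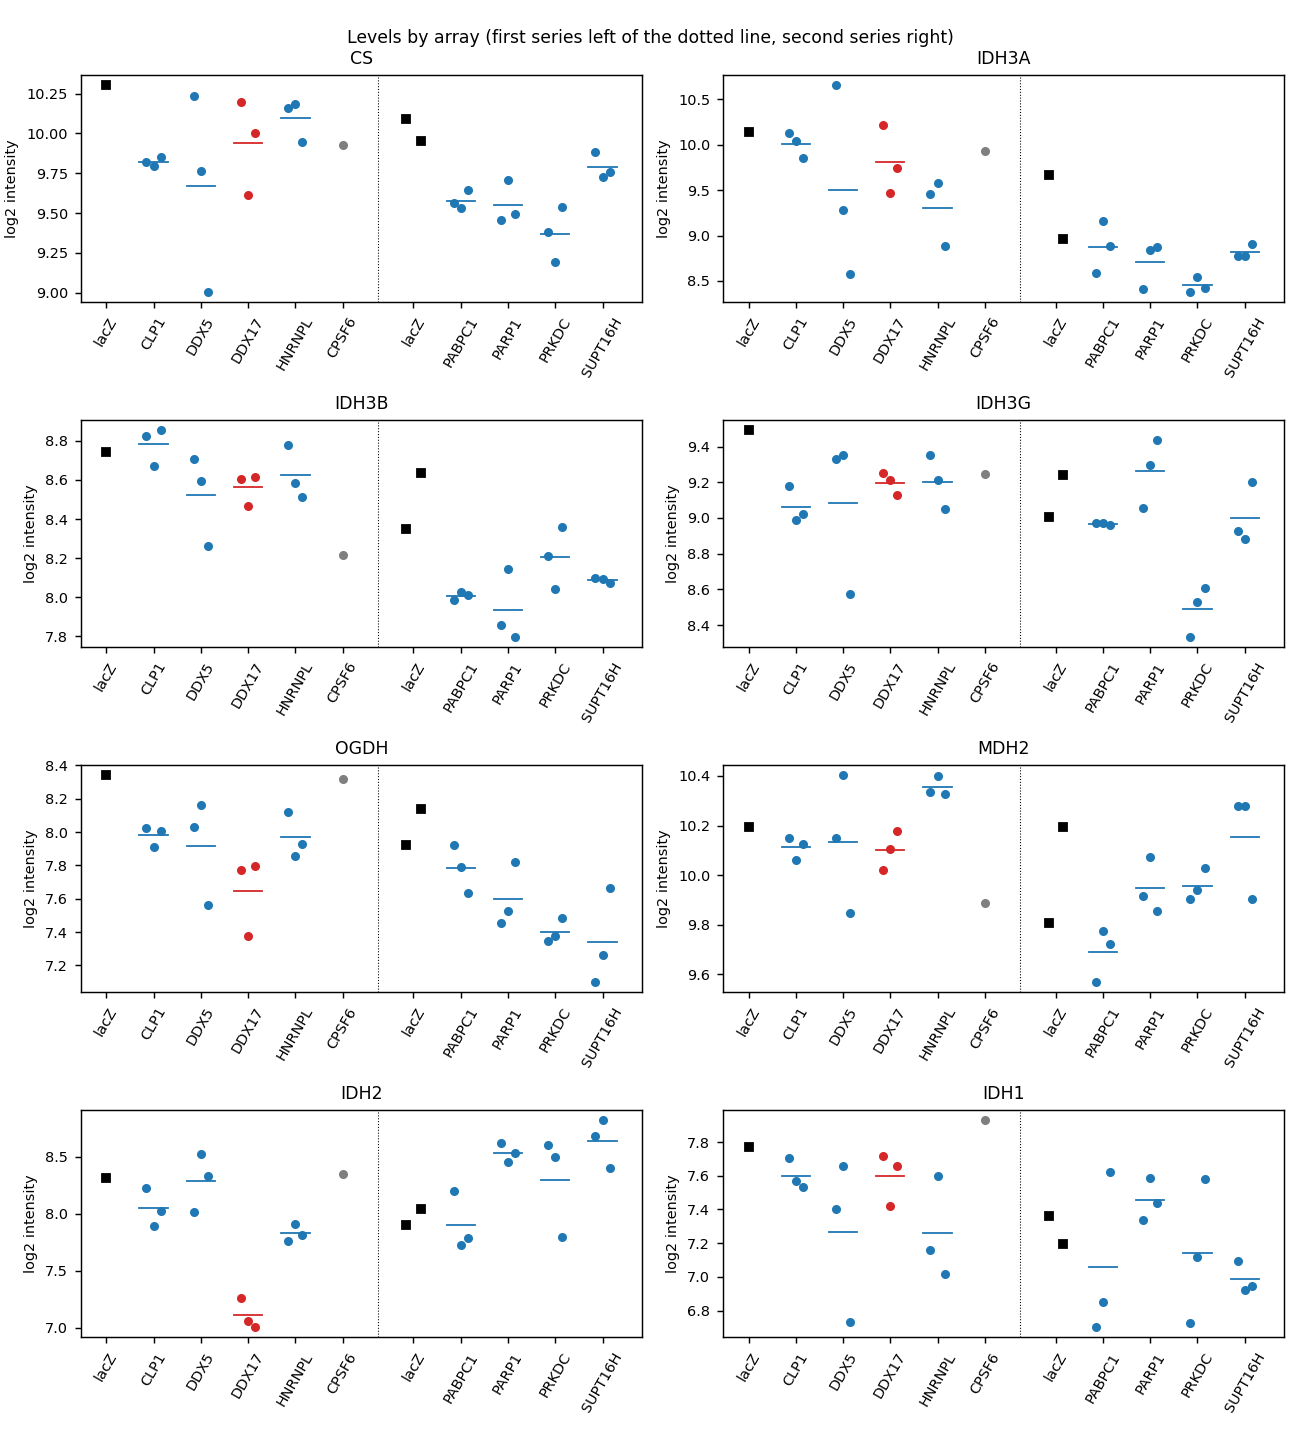
Levels of the 8 enzymes (log2 intensity, vertical axes) in each array, by group: squares, lacZ; red, DDX17; grey, the single CPSF6 array; blue, other knockdowns; bars, mean of 3 hairpins. The 3 DDX17 arrays are the lowest of the first series for IDH2 (7.00 to 7.26), and all 24 hairpin arrays lie below the lacZ arrays of their series for CS. A dotted line parts the first series (left) from the second (right).

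IDH2 lies at chr15:90083045-90102468 (GRCh38.p14). Among the members it had the largest differences from lacZ in either direction, downward in DDX17 knockdown in the first series and upward in SUPT16H knockdown in the second series. Its level in the first series was 8.31 in the lacZ array and 8.35 in the CPSF6 array. In DDX17 knockdown it was 7.26, 7.06 and 7.00, the values that led to the choice of these genes. All 3 arrays lay below the 11 other arrays of the series, which ran from 7.76 to 8.52. Of all genes, 1.31% had their 3 DDX17 arrays below the 11 others, and 2.77% passed the threshold in this comparison, background figures from which nothing is read here because the gene was chosen on it. The difference of IDH2 in DDX17 knockdown was -1.21 (SE 0.26) from lacZ and -0.95 (SE 0.15) from the other knockdowns. The group with the next lowest mean was HNRNPL knockdown.

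Levels of IDH2 in HNRNPL knockdown were 7.76, 7.91 and 7.81, and those in CLP1 knockdown were 8.23, 7.89 and 8.02. DDX5 is the closest relative of DDX17, and in its knockdown IDH2 stood at 8.01, 8.52 and 8.33, on either side of lacZ. The order of the group means was DDX17, HNRNPL, CLP1 and DDX5 from the lowest, and from HNRNPL up each group overlapped the next. None of these 3 knockdowns differed from lacZ by the test: -0.48 (SE 0.26) in HNRNPL, -0.27 (SE 0.26) in CLP1 and -0.02 (SE 0.26) in DDX5, where the 95% interval ran from -0.56 to 0.52. Against the other knockdowns IDH2 was 0.63 (SE 0.15, adjusted p = 0.197) higher in DDX5 knockdown, but that reference holds the low DDX17 arrays, and against CLP1 and HNRNPL alone the difference was 0.35 (SE 0.16, adjusted p = 0.594).

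In the second series IDH2 stood at 7.90 and 8.04 in the 2 lacZ arrays. It was 8.68, 8.82 and 8.40 in SUPT16H knockdown, SUPT16H being a subunit of the histone chaperone FACT. All 3 arrays were above both lacZ arrays, and IDH2 rose by 0.66 (SE 0.21, adjusted p = 0.0438), or 58.5%. In this comparison 3.77% of all genes rose. The call is near the threshold and was lost without either lacZ array, without hairpin 1 (0.64, adjusted p = 0.0852) or hairpin 2 (0.57, adjusted p = 0.143), and without the series term (0.56, adjusted p = 0.0820). Without lacZ replicate 2 the difference was 0.59 (adjusted p = 0.292).

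PARP1 knockdown gave IDH2 levels of 8.62, 8.45 and 8.54, also above both lacZ arrays, with a difference of 0.57 (SE 0.21, adjusted p = 0.115) that did not pass. PRKDC encodes the catalytic subunit of DNA-dependent protein kinase, and its knockdown gave 8.60, 8.50 and 7.80. The third hairpin lay below both lacZ arrays and apart from the other two. The difference was 0.33 (SE 0.21, adjusted p = 0.198) with all hairpins, and without hairpin 3 it was 0.58 (SE 0.19, adjusted p = 0.0300). It was not called without hairpin 1 or hairpin 2. PABPC1 knockdown stood at 8.19, 7.72 and 7.78, around the lacZ level. It was the lowest group against the other knockdowns, by -0.59 (SE 0.15, adjusted p = 0.0948), short of a call.

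The genes that flank IDH2 were compared in the same arrays, as a description. ZNF710, which ends 854 bases from IDH2, differed from lacZ by 0.09 (SE 0.19) in DDX17 knockdown, and ANPEP by -0.02 (SE 0.20). The largest of the 6 neighbours' differences there were those of CIB1 (-0.44, SE 0.22) and MESP2 (-0.39, SE 0.25), against -1.21 for IDH2. SEMA4B differed by -0.23 (SE 0.17) and GDPGP1 by -0.12 (SE 0.25). All 6 differences were smaller in size than that of IDH2 in DDX17 knockdown. As IDH2 was chosen on that value and its neighbours were not, nothing is read from this contrast.

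**Figure D2:**
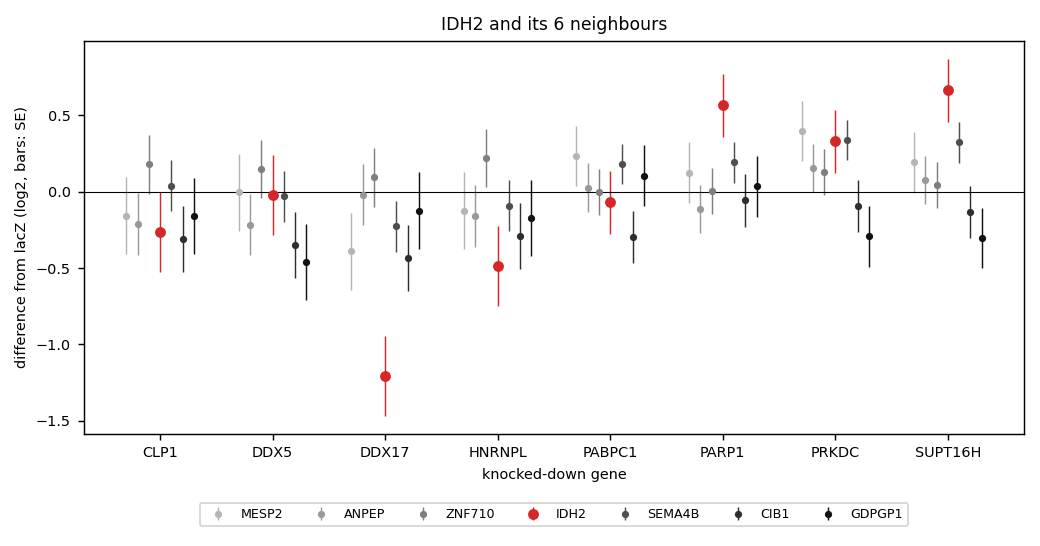
Differences from lacZ (log2, bars: SE) of IDH2 (red) and of the 3 nearest measured genes on either side (greys) in the 8 knockdowns. In DDX17 knockdown, the comparison on which IDH2 was chosen, IDH2 lies at -1.21 and its 6 neighbours lie between -0.44 and 0.09.

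IDH1 (chr2:208236227-208255071), the cytosolic counterpart, did not share the pattern of IDH2. It stood at 7.72, 7.42 and 7.66 in DDX17 knockdown, in the upper part of the range of the hairpin arrays of the first series and below the lacZ array at 7.77. The lowest array of the first series was DDX5 hairpin 3 at 6.73, and the other DDX5 hairpins gave 7.40 and 7.66, so this knockdown was spread over most of the range of the series. In the second series IDH1 ran from 6.70 to 7.62 in the hairpin arrays, with lacZ at 7.36 and 7.19 inside that range. None of the 7 tested knockdowns passed, and their differences from lacZ ran from -0.52 (SE 0.33) in HNRNPL to 0.18 (SE 0.26) in PARP1 knockdown.

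CS (chr12:56271699-56300330) was the member most steadily below lacZ. Its lacZ levels were 10.30 in the first series and 10.09 and 9.95 in the second series, and all 24 hairpin arrays were below the lacZ arrays of their own series. No other member showed this, and 4.69% of all genes did. The single CPSF6 array, at 9.92, was below lacZ as well.

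The lowest CS levels of each series were in DDX5 hairpin 3 and in PRKDC knockdown. PRKDC hairpins gave 9.38, 9.19 and 9.54, and CS fell by 0.65 (SE 0.23, adjusted p = 0.0326), or 36.3%. In this comparison 35.7% of all genes were called and 16.1% fell, more than in any other knockdown, so a call is common there. The CS call was lost without hairpin 1 (-0.65, adjusted p = 0.0623) and without hairpin 2 (-0.56, adjusted p = 0.0867). DDX5 hairpins gave 10.24, 9.77 and 9.01, a spread of more than 1 log2 unit within 1 knockdown, and the difference of -0.63 (SE 0.29, adjusted p = 0.405) did not pass. Without hairpin 1, the DDX5 hairpin with the highest CS level, it was -0.92 (SE 0.25, adjusted p = 0.0444). It was not called without hairpin 2 or hairpin 3.

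No other tested difference of CS from lacZ was called. CLP1 hairpins were close together at 9.82, 9.80 and 9.85, with a difference of -0.48 (SE 0.29, adjusted p = 0.693) from the single lacZ array. PABPC1 hairpins stood at 9.56, 9.53 and 9.64 (difference -0.44, SE 0.23) and PARP1 hairpins at 9.46, 9.71 and 9.50 (difference -0.47, SE 0.23). With the second series fitted alone both passed (adjusted p = 0.0434 in PABPC1 and 0.0456 in PARP1 knockdown). SUPT16H at 9.88, 9.72 and 9.76 and HNRNPL at 10.16, 10.19 and 9.94 were nearest to lacZ, and DDX17 hairpins gave 10.20, 9.61 and 10.00. CS was not called against the other knockdowns in any of the 7 tested.

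The 3 subunits of the NAD-dependent enzyme did not move as 1 unit. IDH3G was lowest in PRKDC knockdown, IDH3B in PARP1 knockdown, and none of the tested differences of IDH3A passed.

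IDH3G (chrX:153785768-153794375) was 9.01 and 9.24 in the lacZ arrays of the second series and 8.33, 8.53 and 8.61 in PRKDC knockdown. These 3 arrays lay below the 11 other arrays of the second series, the next being SUPT16H hairpin 2 at 8.88, as did 3.99% of all genes. IDH3G fell by 0.63 (SE 0.19, adjusted p = 0.0176) from lacZ, or 35.5%, and without hairpin 1 the difference was -0.56 (adjusted p = 0.0581). Set against the other knockdowns it was -0.59 (SE 0.14, adjusted p = 0.0863), not a call, and with the second series fitted alone it was the same size with an adjusted p of 0.00755. In PARP1 knockdown IDH3G was 9.06, 9.30 and 9.44, the highest group of the series, with a difference from the other knockdowns of 0.44 (SE 0.14, adjusted p = 0.133) that passed with the series alone (adjusted p = 0.0316). PABPC1 hairpins were nearly equal at 8.97, 8.97 and 8.96.

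In first-series arrays IDH3G was 9.49 in lacZ and below it in all 12 hairpin arrays, as were CS, OGDH and IDH1, while 11.2% of all genes were. DDX5 hairpin 3 was again the lowest array, at 8.57 against 9.33 and 9.35 for the other DDX5 hairpins. CLP1 hairpins lay at 9.18, 8.99 and 9.02 and HNRNPL hairpins at 9.35, 9.21 and 9.05. No difference of IDH3G from lacZ passed in the first series, the largest being -0.43 (SE 0.24, adjusted p = 0.658) in CLP1 knockdown.

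IDH3B (chr20:2658395-2664216) was 8.35 and 8.63 in the lacZ arrays of the second series and lower in 11 of the 12 hairpin arrays than both. PARP1 hairpins gave 7.86, 8.15 and 7.80. IDH3B fell by 0.56 (SE 0.16, adjusted p = 0.0397), or 32.1%, where 2.98% of all genes fell. Without hairpin 1 the difference was -0.52 (adjusted p = 0.130) and without hairpin 3 -0.49 (adjusted p = 0.138), so the call was lost with either. PABPC1 hairpins were close together at 7.99, 8.02 and 8.01, with a difference of -0.49 (SE 0.16, adjusted p = 0.0695), and SUPT16H hairpins likewise at 8.10, 8.09 and 8.07, with -0.40 (SE 0.16, adjusted p = 0.09996). Neither passed, and no knockdown passed for IDH3B against the other 3. Levels of IDH3B in the first series stayed between 8.26 and 8.86 in the hairpin arrays around a lacZ level of 8.74, with the CPSF6 array lowest of all at 8.22.

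IDH3A (chr15:78149362-78171945) had the widest range of any member in the first series, from 8.58 to 10.66, and both ends came from DDX5 knockdown, whose hairpins stood at 10.66, 9.28 and 8.58. The lacZ array was at 10.14. HNRNPL hairpins gave 9.46, 9.58 and 8.89, the lowest group mean, with a difference of -0.83 (SE 0.45, adjusted p = 0.461). In the second series PRKDC hairpins were lowest and close together at 8.38, 8.55 and 8.43, below both lacZ arrays, but lacZ itself stood at 9.66 and 8.96. That gap between control arrays is larger than most differences of the gene, and the difference in PRKDC knockdown was -0.86 (SE 0.36, adjusted p = 0.0612). With the second series fitted alone it passed (adjusted p = 0.00359). In DDX5 knockdown the difference of IDH3A from lacZ was -0.64 (SE 0.45, adjusted p = 0.633). Without hairpin 1, the only DDX5 hairpin above lacZ for IDH3A, it was -1.21 (SE 0.33, adjusted p = 0.0427). Without hairpin 1 CS (-0.57, adjusted p = 0.0269) and IDH3A (-0.78, adjusted p = 0.0215) also passed against the other knockdowns. IDH2 was 0.76 higher there, but that reference holds the DDX17 values on which IDH2 was chosen, so no test is read from it. Without hairpin 2 or hairpin 3 no member was called in DDX5 knockdown in either comparison.

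OGDH (chr7:44606627-44709066) was below lacZ in all 12 hairpin arrays of the first series and below both lacZ arrays in 11 of 12 in the second series, the exception being PABPC1 hairpin 1, at 7.93 beside a lacZ array at 7.92. In the second series CS alone among the members was below in all 12, as were 12.4% of all genes. It fell in 2 knockdowns. SUPT16H hairpins gave 7.10, 7.26 and 7.66 against lacZ at 7.92 and 8.14, and OGDH fell by 0.69 (SE 0.19, adjusted p = 0.0261), or 37.9%, where 5.76% of all genes fell. Without hairpin 1 (-0.57, adjusted p = 0.0847) or hairpin 2 (-0.65, adjusted p = 0.0826) this call was lost. PRKDC hairpins gave 7.35, 7.37 and 7.49, a tighter group, and OGDH fell by 0.63 (SE 0.19, adjusted p = 0.0169), or 35.3%, a call that was kept without any 1 hairpin.

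PARP1 hairpins gave OGDH levels of 7.46, 7.53 and 7.82 with a difference of -0.43 (SE 0.19, adjusted p = 0.203). For the first series lacZ was at 8.34 and the CPSF6 array beside it at 8.32. DDX17 hairpins were lowest there at 7.77, 7.38 and 7.80, a difference of -0.69 (SE 0.24) that is given without a test. CLP1, DDX5 and HNRNPL overlapped each other, with differences of -0.36, -0.42 and -0.37 from lacZ (SE 0.24 each), none of which passed.

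MDH2 (chr7:76048106-76067508) varied least. Its arrays spanned 0.56 log2 units in the first series and 0.71 in the second series, the narrowest range of any member in the first series and in the second. HNRNPL hairpins, at 10.34, 10.40 and 10.33, were all above the lacZ array at 10.19, and PABPC1 hairpins, at 9.57, 9.78 and 9.72, were all below the lacZ arrays at 9.81 and 10.19. Neither difference passed (0.16, SE 0.22, and -0.31, SE 0.17), and against the other knockdowns PABPC1 stood at -0.33 (SE 0.12, adjusted p = 0.303). In DDX17 knockdown, where IDH2 was at its lowest, MDH2 differed from lacZ by -0.09 (SE 0.22).

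Over the 8 enzymes and the 7 knockdowns other than DDX17, 6 of 56 differences from lacZ were called, 1 higher and 5 lower. Under quantile normalisation over all arrays 1 was called, higher, and 0 lower, and without the series term 8 were called, all lower. Of all gene and knockdown pairs 8.58% were called, 4.11% higher and 4.47% lower. All 6 were in the second series: 3 in PRKDC, where 35.7% of all genes were called, 2 in SUPT16H (9.53%) and 1 in PARP1 knockdown (5.44%). PABPC1 knockdown had 0 calls among the 8 enzymes, where 5.76% of all genes were called. In the first series 0 of 24 were called by limma. Of all genes 0.956% were called there in CLP1, 0.842% in DDX5 and 1.84% in HNRNPL knockdown, and each comparison rests on 1 lacZ array. Leaving out either lacZ replicate 2 or lacZ replicate 3 left 0 of the 6 calls, the single lacZ array that remained being assumed to vary like the other groups.

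Against the other knockdowns of the series 0 of 56 differences were called by limma, where 0.228% of all pairs were. With DDX17 left out of the reference 0 were called as well. The median difference of the 8 enzymes from lacZ was below 0 in each knockdown, from -0.46 in PRKDC to -0.22 in CLP1, while the median of all genes ran from -0.01 to 0.10. These comparisons share their lacZ arrays. Against the other knockdowns the medians ran from -0.12 in PRKDC to 0.17 in CLP1. For each gene those differences sum to 0 within a series by construction. That comparison therefore cannot show a fall shared by all knockdowns of a series, and nothing about one is read from it.

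**Figure D3:**
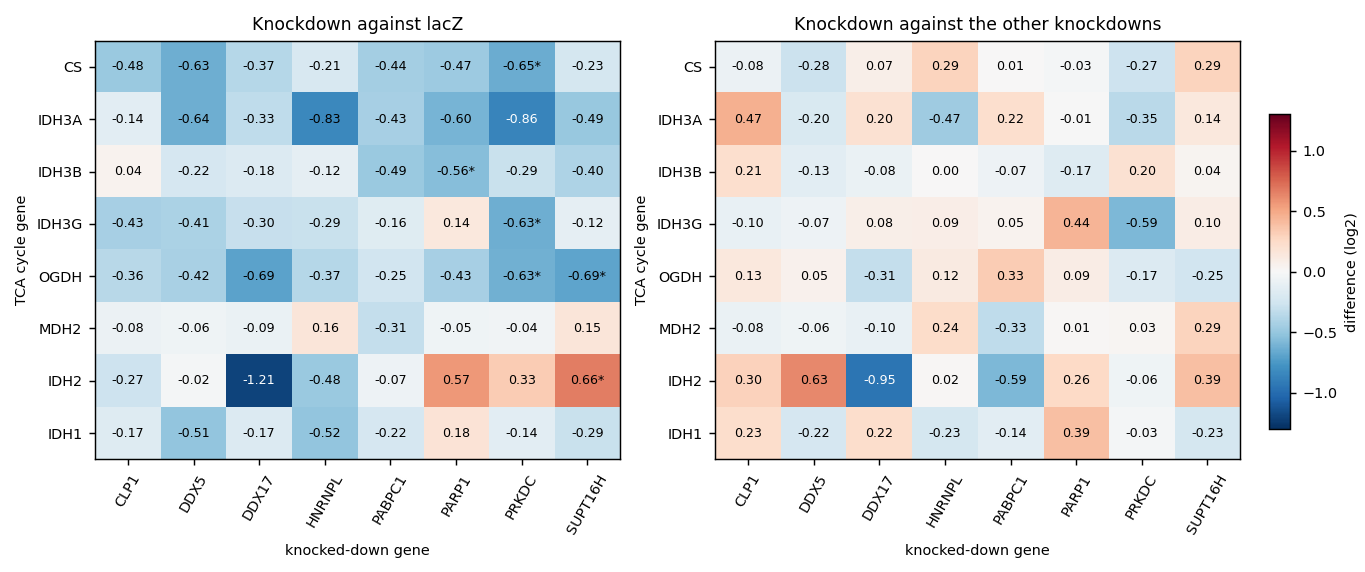
Differences in log2 units of the 8 enzymes (rows) in 8 knockdowns (columns), from lacZ at left and from the mean of the other 3 knockdowns of the series at right, with calls starred and DDX17 not tested. Of the 6 stars at left, 5 are lower and IDH2 in SUPT16H is higher (0.66), and the right panel has 0 stars.

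Levels of the enzymes were also compared over the 27 distinct arrays by Pearson correlation, after the mean of each gene in each series was taken off. The arrays share controls and knockdowns, so these are descriptions. Of 28 pairs, 21 correlated above 0, with a median of 0.24. CS went with IDH3G (0.64) and IDH3A (0.63), and IDH3A with IDH3G (0.51), but IDH3B and IDH3G, subunits of 1 enzyme, stood at 0.06. IDH2 stood between -0.17 with IDH3B and 0.19 with MDH2. Without the DDX17 arrays its values ran from -0.29 with IDH3B to 0.17 with MDH2, and that with OGDH went from 0.11 to -0.23.

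**Figure D4:**
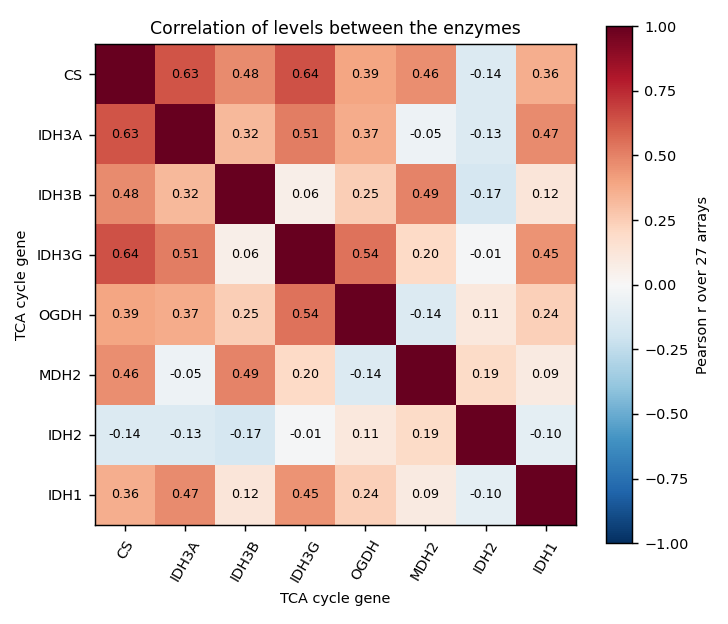
Pearson correlation over 27 arrays between the levels of the 8 enzymes (both axes, the diagonal is each gene with itself). CS with IDH3G (0.64) and with IDH3A (0.63) are the highest pairs, and the IDH2 row stays between -0.17 and 0.19.

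Over all genes measured, those most like IDH2 were NTN4 (0.84), NID2 (0.83), HTR6 (0.83), ABCA2 (0.83) and GAA (0.82). NTN4 and NID2 encode basement membrane proteins, HTR6 a serotonin receptor, ABCA2 a lipid transporter and GAA the lysosomal acid alpha-glucosidase. The values are drawn in part by the DDX17 arrays, for without them they were 0.73, 0.77, 0.79, 0.79 and 0.70, and the genes most like IDH2 over those 24 arrays were IL17RD (0.86), ADA (0.83) and PLAU (0.83). NID2 was 6.11 to 6.44 in the DDX17 arrays and 6.80 to 7.67 in the 11 others of the first series. The closest genes of the other members were PPP2CA for IDH3A (0.93), ASF1B for OGDH (0.91), PCMTD1 for IDH3G (0.87), RFWD3 for CS (0.86), TRMT44 for IDH3B (0.78), PDZD8 for IDH1 (0.78) and NOB1 for MDH2 (0.76).

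The rest of the pathway was read from 6 gene lists, 52 measured genes in all, for the 7 knockdowns other than DDX17. Against lacZ 24 of 364 differences were called, 8 higher and 16 lower, beside the 8.58% of all pairs given above. The split moved with the scaling, to 17 higher and 15 lower under quantile normalisation over all arrays and to 25 higher and 21 lower without the series term. Against the other knockdowns 0 of 364 were called by limma, where 0.228% of all pairs were. All 24 calls were in the second series and so use its 2 lacZ arrays: 1 call was left without lacZ replicate 2, and 11 without lacZ replicate 3.

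Of the rest of the cycle, 9 of 11 genes were measured, with medians from -0.23 to 0.11 over the 7 knockdowns. Of 63 differences 2 were called, both higher, beside 4.11% of all pairs called higher. SUCLG2, the GTP-forming subunit of succinyl-CoA ligase, was 6.87, 7.44 and 7.93 in SUPT16H knockdown against 6.48 and 6.51 in lacZ, and rose by 0.92 (SE 0.29, adjusted p = 0.0489). The rise was not particular to SUPT16H knockdown. SUCLG2 was 7.38 to 7.55 in PARP1, 6.83 to 7.61 in PRKDC and 6.56 to 7.36 in PABPC1 knockdown. All these arrays were above both lacZ arrays too, without a call. The share of all genes for which this held was not counted, so nothing is read from it. OGDHL, the relative of OGDH, rose by 0.44 (SE 0.17, adjusted p = 0.0496) in PRKDC knockdown, where OGDH fell. The subunits of succinate dehydrogenase that were measured had no call.

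Pyruvate enters the matrix through the mitochondrial carrier MPC1 and MPC2 and is turned into acetyl-CoA by pyruvate dehydrogenase. Of 84 differences in the 12 measured genes of this list, 1 was higher and 4 lower, beside 4.11% and 4.47% of all pairs. MPC1 stood at 9.09 and 9.21 in lacZ, at 7.63, 7.72 and 8.52 in PRKDC knockdown and at 7.80, 8.06 and 8.15 in SUPT16H knockdown. All 6 arrays were below both lacZ arrays, and MPC1 fell by 1.19 (SE 0.26, adjusted p = 0.00279) and by 1.15 (SE 0.26, adjusted p = 0.00749). The PABPC1 (8.14 to 8.79) and PARP1 arrays (8.18 to 8.64) were below both lacZ arrays too, without a call. Of all genes, 12.4% had all 12 hairpin arrays of the second series below lacZ. In PRKDC knockdown MPC2, the partner of MPC1, fell by 0.48 (SE 0.18, adjusted p = 0.0394), and so did PDP1, a phosphatase that activates pyruvate dehydrogenase, by 0.65 (SE 0.21, adjusted p = 0.0241). PDK2, a kinase that inhibits the same enzyme, rose by 0.92 (SE 0.22, adjusted p = 0.0143) in PARP1 knockdown. In PRKDC knockdown 10 of the 12 genes of this list were below lacZ, with a list median of -0.44 beside 0.10 for all genes. The count was also 10 in DDX5 (median -0.20) and HNRNPL knockdown (median -0.14), and 8 in PABPC1 knockdown (median -0.23). It was 3 in CLP1, 4 in PARP1 and 5 in SUPT16H knockdown.

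Among cytosolic counterparts and citrate users, SLC25A1, the mitochondrial citrate carrier, rose by 0.79 (SE 0.21, adjusted p = 0.00838) and the cytosolic aspartate aminotransferase GOT1 fell by 0.57 (SE 0.23, adjusted p = 0.0497), both in PRKDC knockdown. These were 2 of 42 differences, beside 8.58% of all pairs, and in PRKDC knockdown 35.7% of all genes were called. Among glutamine and malate links 3 of 63 were called, all higher, beside 4.11% of all pairs called higher. They were SLC25A11, the 2-oxoglutarate and malate carrier, in PARP1 knockdown (0.83, SE 0.21, adjusted p = 0.0158), and in PRKDC knockdown the dicarboxylate carrier SLC25A10 (0.81, SE 0.25, adjusted p = 0.0167) and D2HGDH (0.66, SE 0.20, adjusted p = 0.0176), which oxidises D-2-hydroxyglutarate. ACLY, which splits citrate in the cytosol, differed from lacZ by -1.18 (SE 0.26) in DDX17 knockdown. The value was picked after it was seen and is given as a description, as for IDH2. ACLY was also below the first-series lacZ array (9.74) in every CLP1, DDX5 and HNRNPL array and in the CPSF6 array (9.26). Of all genes, 11.2% were below lacZ in all 12 hairpin arrays of that series. IDH2 was below it in 10 of the 12, and the 2 above it were in DDX5 knockdown. ACLY levels in DDX17 knockdown (8.26 to 8.81) overlapped those in DDX5 knockdown (8.50 to 9.11). A level below lacZ was thus not particular to DDX17 knockdown for either gene.

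Of other NADPH sources, 7 of 8 were measured and 4 of 49 differences were called, all lower and all of 1 gene, beside 4.47% of all pairs called lower. ALDH1L2, a mitochondrial enzyme that makes NADPH from formyl-tetrahydrofolate, was 7.26 and 7.64 in lacZ of the second series. In PABPC1 knockdown it was 5.19, 5.63 and 5.78 and fell by 1.92 (SE 0.31, adjusted p = 0.000561), or 73.6%. It fell also in PRKDC (1.62, adjusted p = 0.00128), SUPT16H (1.44, adjusted p = 0.00580) and PARP1 knockdown (1.16, adjusted p = 0.0278). In the first series its lacZ level was 8.01 and CLP1 hairpins stood above it at 9.01, 9.03 and 9.28, a difference that did not pass. IDH2, the NADP-dependent member in the same compartment, was not called lower in any of those 4 knockdowns.

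Transcriptional regulators linked to mitochondrial biogenesis had 1 higher and 7 lower call of 63, beside 4.11% of all pairs called higher and 4.47% lower. In PRKDC knockdown 1 was higher and 3 lower of 9, where 35.7% of all genes were called. GABPA was 8.91 and 9.27 in lacZ of the second series. It fell by 0.82 (SE 0.20, adjusted p = 0.0148) in PARP1 knockdown, with levels of 8.17, 8.29 and 8.35, and by 0.74 (SE 0.20, adjusted p = 0.00969) in PRKDC knockdown. Of the members called lower in these 2 knockdowns, IDH3B, CS and IDH3G hold the ETS core shown above, as do IDH3A and MDH2, which were not called. OGDH was also called lower in PRKDC knockdown, and no promoter window was at hand for it. Any relation between GABPA and these members was not tested. PPRC1, a coactivator, fell by 0.82 (SE 0.18, adjusted p = 0.00604) in PARP1 and by 0.65 (SE 0.18, adjusted p = 0.0238) in SUPT16H knockdown. TFB2M, a mitochondrial transcription factor, fell by 0.87 (SE 0.22, adjusted p = 0.00642) in PRKDC and by 0.86 (SE 0.22, adjusted p = 0.0166) in SUPT16H knockdown. PPARGC1A fell by 0.82 (SE 0.30, adjusted p = 0.0367) in PRKDC knockdown, and ESRRA, the 1 higher call, named after its value was seen, rose by 0.50 (SE 0.20, adjusted p = 0.0494) there.

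**Figure D5:**
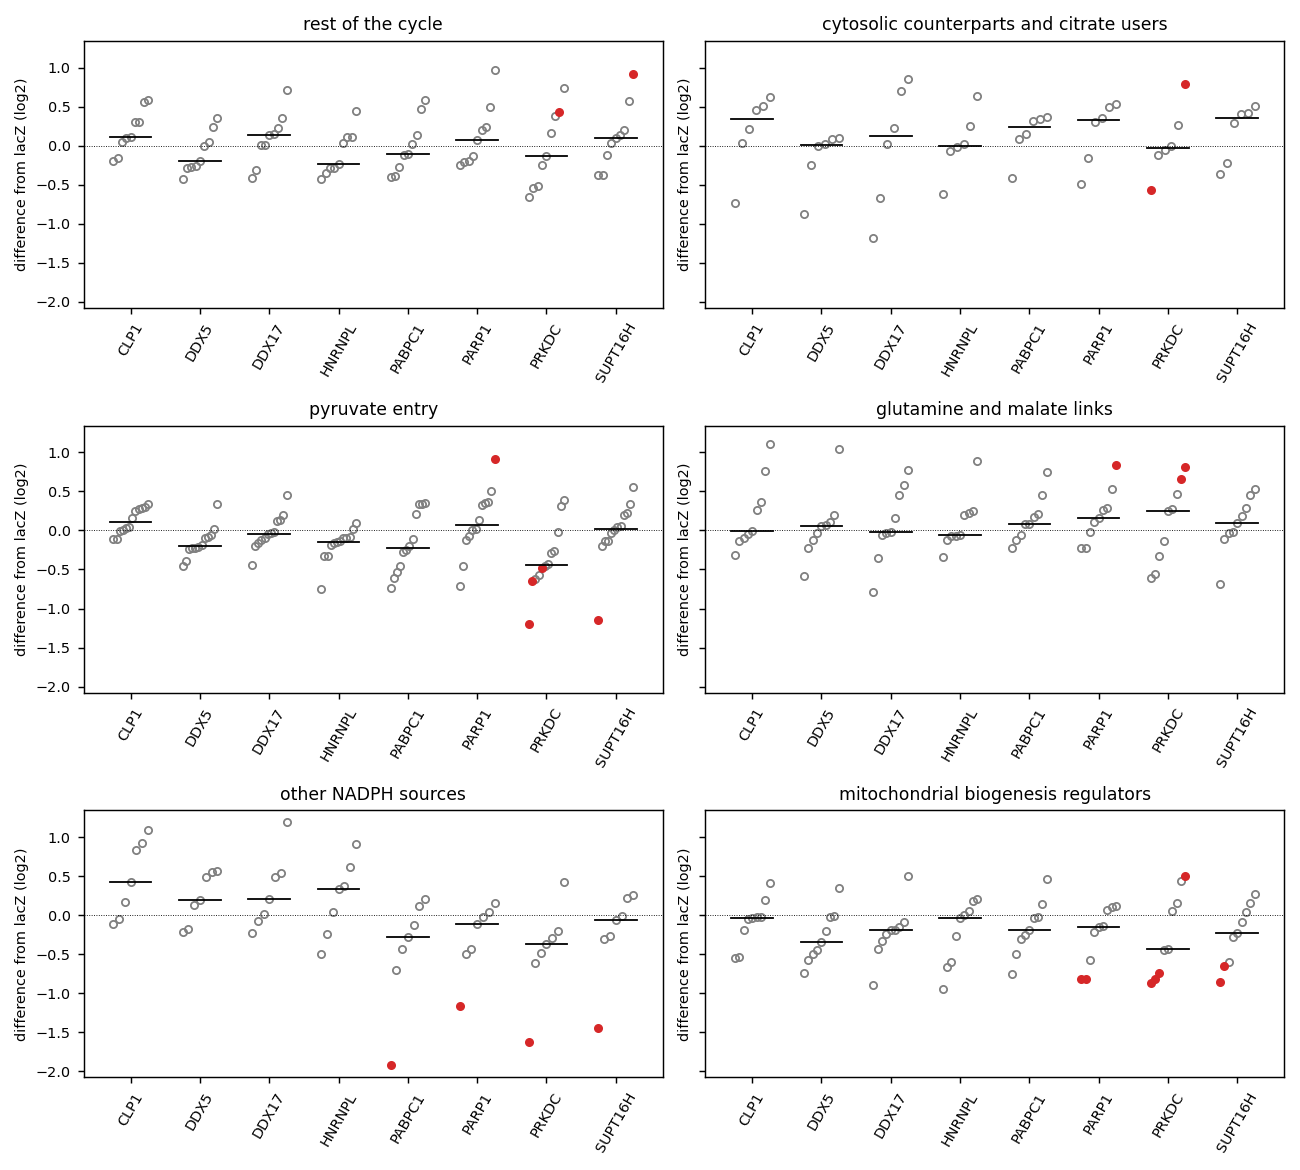
Differences from lacZ (log2) of each gene of the 6 pathway lists in 8 knockdowns, 1 circle a gene, with called genes filled in red, medians as bars and DDX17 not tested. The lowest red points belong to ALDH1L2 (down to -1.92, in PABPC1 knockdown) and MPC1 (down to -1.19, in PRKDC knockdown).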

How the data were processed

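Arrays were normalised by the authors with robust multi-array averaging (RMA), and the deposited values are probeset intensities on the linear scale (4.25 to 18486). First-series arrays had median intensities of 61.5 to 74.0 and second-series arrays of 54.5 to 58.3, and the lacZ array present in both differed by a near-constant amount, so comparisons were made within a series. The build and detection calls of the probesets are not given in the sources used here. Of 33252 probesets, the 19460 with exactly 1 gene symbol were kept and the brightest on average represented its gene. Gene coordinates are those of the RefSeq table for GRCh38.p14.

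The log2 values of all 28 arrays were fitted together with limma 3.58.1 (R 4.3.3) to estimate a mean for every knocked-down gene beside a series effect. Variances were moderated along an intensity trend, with 17 residual and 8.00 prior degrees of freedom. Intervals are at 95%. CPSF6, with 1 array, was not tested. Precision is limited by the number of arrays. The residual spread comes mostly from the 3 hairpins of each knockdown, so p-values reflect the spread between hairpins and not between repeat cultures. The labels do not say that lacZ arrays came from separate cultures, so the spread between the 2 of the second series may be technical. The calling was tested on simulated data. Figures and tables used Python 3.11.15 with pandas 2.3.3 and matplotlib 3.10.9.

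The members, gene lists and tests were chosen with earlier results of these data known. All members are named, and of each list at most 4 called genes, those with the smallest adjusted p whose hairpins moved the same way. The settings tried in turn were quantile normalisation across arrays, a pseudocount of 16, median centring, separate fits of the series, no series term, a filter on low values, the mean of all probesets, no intensity trend, the hairpin number as a block, a reference without DDX17, and each hairpin or lacZ array left out.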

Additional observations from a re-analysis of the deposited data

How the results depend on the processing

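Hairpin numbers name unrelated sequences in different genes, and deviations of same-numbered arrays correlated from -0.58 to 0.83 (15 of 36 over 0.1), with all 3 over 0.1 only between DDX5 and HNRNPL (0.63, 0.23 and 0.83), so they were not used as pairs. With the number as a replicate block, 0 member differences and 1 list difference from the other knockdowns were called. With each series fitted alone, calls against lacZ went from 6 to 10 for the members and from 24 to 46 for the lists (14 higher, 32 lower), and against the other knockdowns from 0 to 2 and from 0 to 16. Quantile normalisation over all arrays left 1 member call against lacZ, IDH2 in SUPT16H knockdown, and gave 1 member call and 3 list calls against the other knockdowns. The filter on low values gave 1 list call against the other knockdowns. Without the series term, which moves the median of all genes by up to 0.25, the lists had 46 calls against lacZ, of which 25 were higher, and the IDH2 difference in DDX17 knockdown from lacZ was -0.97 in place of -1.21. Leaving out 1 hairpin of the tested knockdown gave 3 to 6 member calls and 18 to 21 list calls against lacZ. Against the other knockdowns it gave 0 to 3 and 0 to 18. The 3 include IDH2 in DDX5 knockdown, against a mean that holds the DDX17 values on which IDH2 was chosen. Leaving out a lacZ array gave 0 member calls and 1 or 11 list calls. The cause of these shifts was not tested. Each of the 6 member calls was run under 13 alternatives, kept its direction in all of them, and was lost in 3 to 5. Adjusted p ranged from 0.0124 to 0.316 for IDH3B in PARP1 knockdown, and in PRKDC knockdown from 0.00224 to 0.184 for CS, 0.00415 to 0.129 for IDH3G and 0.00728 to 0.123 for OGDH. In SUPT16H knockdown it ranged from 0.0335 to 0.292 for IDH2 and 0.00931 to 0.180 for OGDH.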
